A study of Mus musculus with 6 samples.

Results

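The serotonin receptor genes of the newborn mouse cortex were taken as 10 named genes, Htr1a, Htr1b, Htr1f, Htr2a, Htr2c, Htr3a, Htr4, Htr5a, Htr6 and Htr7, matched by GENCODE M21 symbol among the 52550 gene identifiers counted. The 3 knockout libraries came from Slc7a5 fl/fl; Emx1Cre+ pups and the 3 control libraries from Slc7a5 fl/fl; Emx1Cre- pups, all of the C57BL6/J strain at postnatal day 2, with 1 cortical hemisphere in each library. By the genotype label both groups carry the floxed alleles and differ by Cre, while the titles and the design text call the controls wild type. Emx1 drives this Cre in the progenitors of the excitatory neurons and astrocytes of the dorsal forebrain, while most cortical interneurons, microglia, blood vessels and choroid plexus are not recombined. Titles give the libraries of each genotype the letters A, B and C. The receptors were looked at because Slc7a5 is the light chain of LAT1, an exchanger of large neutral amino acids. It also carries tryptophan, the precursor of serotonin. Serotonin itself was not measured here, and the brainstem, where it is made, lies outside the dorsal forebrain. Whether the knockout alters serotonin was not tested.

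Serotonin is made from tryptophan by raphe neurons of the brainstem, whose axons reach the cortex before birth. Its receptors are G protein-coupled, apart from the type 3 receptors, which are cation channels: the type 1 and type 5 receptors act mainly through Gi/o and lower cyclic AMP, the type 2 receptors act through Gq and phospholipase C, and the type 4, 6 and 7 receptors act through Gs and raise cyclic AMP. In the perinatal rodent cortex they are known for effects on neuronal migration, dendrite growth and the targeting of thalamic axons.

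Gene counts per library were 9851376, 10372582 and 9524407 in knockouts A, B and C and 10077443, 8249436 and 9927206 in controls A, B and C. Slc7a5, the check of the labels, had 15.6, 9.37 and 11.4 CPM (counts relative to library size after TMM scaling) in knockouts A, B and C, against 20.2, 40.7 and 26.1 CPM in controls A, B and C. It was lower in every knockout than in any control, with a log2 change of -1.25 ± 0.28 (SE), but did not pass in edgeR's quasi-likelihood test (Benjamini-Hochberg adjusted p = 0.400), while DESeq2 called it (adjusted p = 6.95e-04). Emx1 itself, added after its values were seen, had 7.92, 10.9 and 8.21 CPM in knockouts A, B and C, against 17.1, 25.4 and 13.7 CPM in controls A, B and C. Its groups did not overlap, and it was called by DESeq2 (adjusted p = 0.0194) and with the letter as a block (edgeR adjusted p = 1.75e-04) but not by edgeR on genotype alone (0.178). Which exons of Slc7a5 Cre removes is not said in the labels. Counts over the whole Slc7a5 gene may thus include exons that remain, and unrecombined cells still express Slc7a5. Reads outside annotated exons were 27.4 to 27.9% of mapped reads in knockouts and 22.5 to 26.5% in controls, and the part of that share in the receptor levels was not tested. Markers of cortical projection neurons were present in all libraries: 12 upper-layer genes summed to 1942 to 2111 CPM in knockouts and 2245 to 2566 CPM in controls, and 12 deep-layer genes to 1783 to 1889 CPM in knockouts and 1739 to 1926 CPM in controls. Striatal projection neuron markers, Drd1 and Six3 among them, were also present in every library. Xist, which females express from their silenced X chromosome, had 961 CPM in knockout B and 918 CPM in control B, and at most 2.95 CPM in the others.

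The receptor genes were all detected, and together they made up 454, 502 and 478 counts in knockouts A, B and C and 480, 434 and 496 counts in controls A, B and C. Their summed level was 46.7, 46.6 and 49.7 CPM in knockouts A, B and C, against 48.3, 53.8 and 50.5 CPM in controls A, B and C, and these ranges overlapped. Per kilobase of exon, which allows genes to be set beside each other, Htr1b had the highest mean level over the 6 libraries at 2.55 CPM per kb, followed by Htr7 at 2.07, Htr3a at 1.72, Htr2c at 1.55, Htr1a at 1.05, Htr1f at 0.889 and Htr5a at 0.775 CPM per kb. Htr6 lay lower, at 0.215 CPM per kb, and Htr4 and Htr2a were the lowest at 0.0596 and 0.0398 CPM per kb. Even Htr1b exceeded only 35.9% of the 14913 genes tested in level per kb, and Htr5a exceeded 14.0% of them.

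Neighbours in this order mostly shared their range over libraries. Only between Htr2c and Htr1a, and between Htr5a and Htr6, did the 6 libraries of one gene all lie above the 6 of the next. The lowest Htr2c level was 1.40 and the highest Htr1a level 1.38 CPM per kb, and the lowest Htr5a level was 0.421 and the highest Htr6 level 0.348 CPM per kb. Htr1b stood above Htr7 in each of the 6 libraries although their ranges overlapped, whereas Htr7 stood above Htr3a, and Htr3a above Htr2c, in 4 of 6. The place of Htr2c depended on the length used, a choice added after the data were seen. Its exons span 9328 bases in union, but its longest coding transcript has 4883 bases, and over that length Htr2c came first at 2.95 CPM per kb, ahead of Htr1b. The other members kept their order among themselves.

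**Figure D1:**
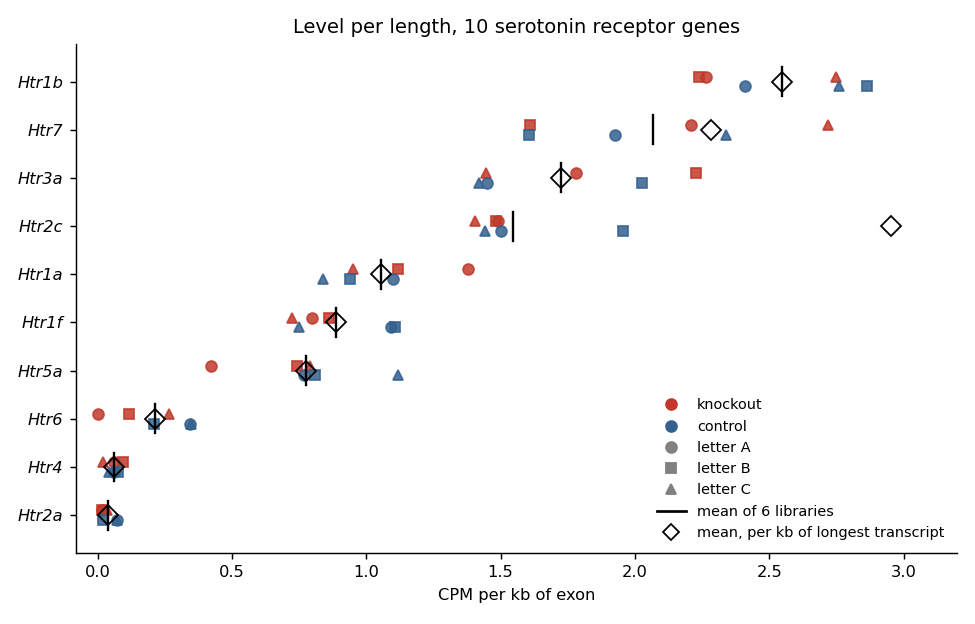
Level of each of the 10 receptor genes in CPM per kb of exon (x axis), one point per library, knockouts above controls in each row, with bars at the mean of 6 libraries and diamonds at the mean per kb of the longest coding transcript. Genes down to Htr5a lie between 0.421 and 2.86 CPM per kb in every library, and Htr6, Htr4 and Htr2a lie at or below 0.348 CPM per kb; the diamond of Htr2c, at 2.95 CPM per kb, is the one far from its bar.

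RefSeq start-site windows on GRCm38.p6 were matched for 8 of the 10 genes, with a second window for Htr6, and 4 are shown here because they pair members of unlike level in these libraries with unlike sequence, with each CG dinucleotide in capitals. The Htr7 window (chr19:36057311-36057610, minus strand) and the Htr2c window (chrX:146962263-146962562, plus strand) belong to members with at least 5 CPM in every library, the Htr6 window (chr4:139075521-139075820, minus strand) and the Htr2a window (chr14:74640624-74640923, plus strand) to members with at most 8 counts in any library. The RefSeq start lay 147 bases from the GENCODE M21 gene start for Htr7 and 34 bases for Htr2a, and at the same base for Htr2c and Htr6.
Htr7: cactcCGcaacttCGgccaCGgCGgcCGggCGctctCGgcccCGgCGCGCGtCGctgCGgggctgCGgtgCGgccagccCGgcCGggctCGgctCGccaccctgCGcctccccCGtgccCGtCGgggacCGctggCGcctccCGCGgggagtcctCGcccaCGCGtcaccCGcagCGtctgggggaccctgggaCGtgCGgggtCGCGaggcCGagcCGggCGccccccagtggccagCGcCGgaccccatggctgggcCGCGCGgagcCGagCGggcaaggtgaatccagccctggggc
Htr2c: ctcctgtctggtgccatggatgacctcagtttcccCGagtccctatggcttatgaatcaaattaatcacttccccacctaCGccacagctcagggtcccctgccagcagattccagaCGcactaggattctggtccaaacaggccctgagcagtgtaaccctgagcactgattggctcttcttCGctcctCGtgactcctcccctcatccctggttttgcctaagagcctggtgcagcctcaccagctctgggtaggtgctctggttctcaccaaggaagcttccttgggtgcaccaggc
Htr6: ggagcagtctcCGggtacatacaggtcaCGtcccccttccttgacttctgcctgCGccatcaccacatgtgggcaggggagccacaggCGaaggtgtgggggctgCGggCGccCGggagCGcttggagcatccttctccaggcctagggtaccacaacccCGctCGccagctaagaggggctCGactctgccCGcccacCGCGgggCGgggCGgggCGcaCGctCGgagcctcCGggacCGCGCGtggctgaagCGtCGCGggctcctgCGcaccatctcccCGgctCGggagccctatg
Htr2a: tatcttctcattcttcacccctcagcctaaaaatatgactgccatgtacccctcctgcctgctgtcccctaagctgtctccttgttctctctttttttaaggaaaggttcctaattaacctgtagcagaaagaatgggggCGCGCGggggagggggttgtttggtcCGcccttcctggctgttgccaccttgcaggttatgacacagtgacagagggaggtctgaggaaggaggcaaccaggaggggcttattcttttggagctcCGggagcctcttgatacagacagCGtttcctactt
The letters CG, which read the same on both strands, occurred 46 times in the Htr7 window and 5 times in the Htr2c window, and 29 times in the Htr6 window against 6 times in the Htr2a window. Among all 32851 windows of the same table the median was 7, with quartiles of 3 and 20, and 98.4% of them held fewer CG than Htr7, 38.0% fewer than Htr2c, 87.1% fewer than Htr6 and 43.6% fewer than Htr2a. Htr5a, Htr1f, Htr1b and Htr1a had 14, 13, 11 and 7, and the second Htr6 window had 10. The number of CG thus did not follow the order of the levels: Htr7 and Htr6, both rich in CG, lay far apart in level, and Htr1b, first in level, had 11.

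Of the 10 receptors, 7 passed the filter on low counts and were tested, and none was called in the knockouts by edgeR at an adjusted p under 0.05, where 0.0335% of all 14913 genes were called (5 genes), 0.0201% as higher (3 genes) and 0.0134% as lower (2 genes). None of the 7 reached an unadjusted p under 0.05 either, against 7.00% of all genes, none had groups that did not overlap in CPM, against 12.2% of all genes. DESeq2 called none of them, against 0.139% of all genes, and edgeR without the filter on low counts none, against 0.277%. Their median log2 change was -0.15, with 3 higher and 4 lower, beside 0.00 over all genes. In tissue RNA, fewer cells of a type and less RNA per cell cannot be told apart. The sizes that these data leave possible differ by gene and are given as 95% intervals below; the median SE of a log2 change was 0.23 among the 4401 genes within the receptors' range of control level, against 0.15 over all genes.

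**Figure D2:**
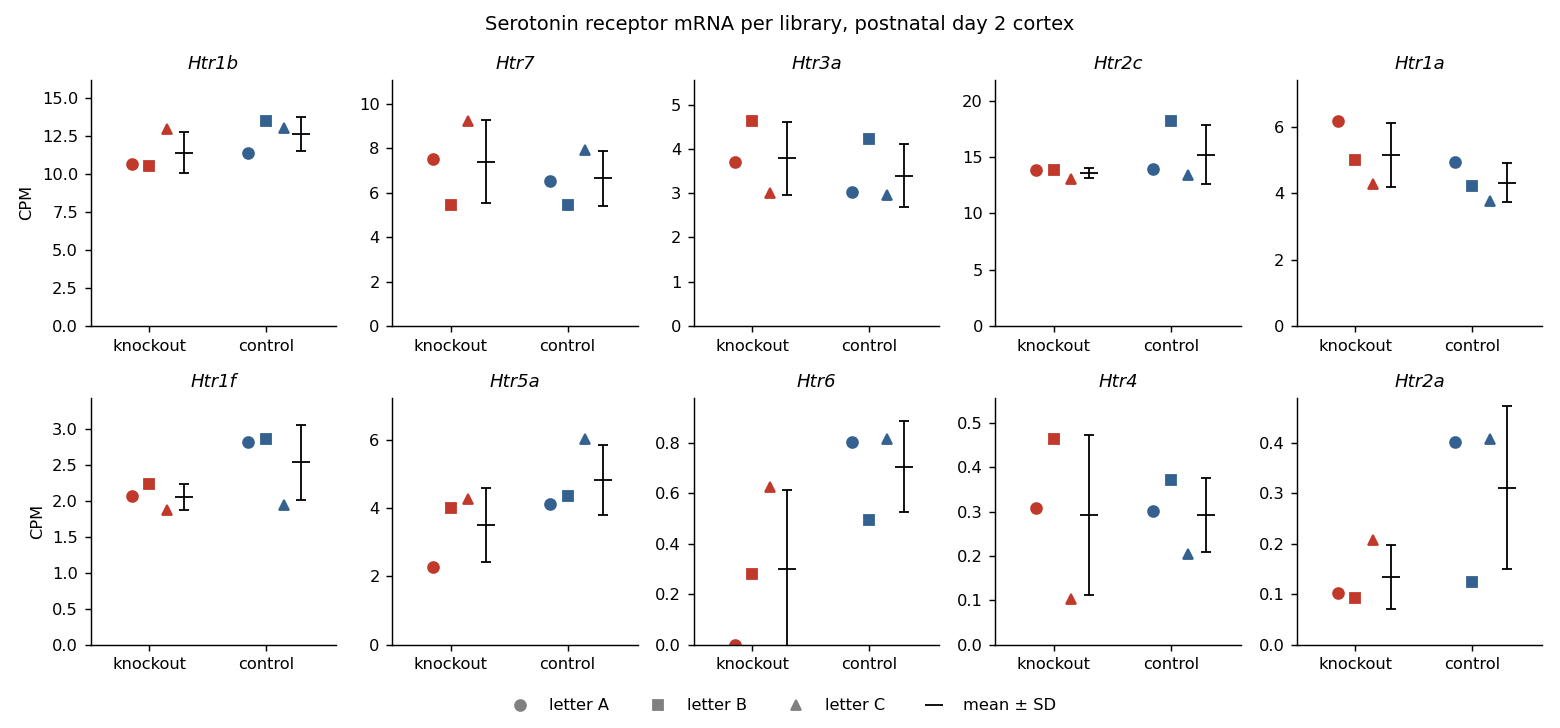
Level of each receptor gene in CPM (y axis, from 0, with its own scale in each panel) in the 3 knockout and 3 control libraries, with mean and SD beside the points and the marker shape giving the letter; SD bars are cut at 0. In each of the 7 tested genes the knockout and control points overlap, and Htr2c of control B stands alone at 18.2 CPM.

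Among the Gi/o-coupled receptors, Htr1b was the most abundant; it is a presynaptic receptor that damps transmitter release and, in the newborn rodent, is carried by thalamic axons. Htr1b had 10.7, 10.6 and 13.0 CPM in knockouts A, B and C, against 11.4, 13.5 and 13.0 CPM in controls A, B and C. Knockouts A and B lay below every control and knockout C level with control C, so that the groups overlapped. The mean was 11.4 ± 1.36 CPM in knockouts and 12.6 ± 1.13 CPM in controls (SD, n = 3 each), a log2 change of -0.15 ± 0.17 with a 95% interval of -0.50 to 0.21 (edgeR adjusted p = 0.907), or 0.709 to 1.15 on the fold scale.

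Htr1a, the inhibitory receptor of pyramidal cell bodies and also the autoreceptor of raphe neurons, had 6.18, 5.01 and 4.26 CPM in knockouts A, B and C, against 4.93, 4.22 and 3.77 CPM in controls A, B and C. Letter A was the highest and letter C the lowest in both genotypes, and each knockout lay above the control of its letter, with overlapping groups. The means were 5.15 ± 0.965 CPM in knockouts and 4.31 ± 0.587 CPM in controls (SD, n = 3 each), and the log2 change of 0.26 ± 0.25 had an interval of -0.27 to 0.78 (edgeR adjusted p = 0.880).

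Htr1f, a Gi/o receptor targeted by the migraine drug lasmiditan, had 2.06, 2.23 and 1.87 CPM in knockouts A, B and C, against 2.82, 2.85 and 1.94 CPM in controls A, B and C. Controls A and B were above all knockouts, and control C was within their range. The log2 change was -0.30 ± 0.31, with an interval of -0.96 to 0.36 (edgeR adjusted p = 0.899), on 18 to 28 counts per library.

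Htr5a, a Gi/o receptor found almost only in the nervous system, had 2.26, 3.99 and 4.26 CPM in knockouts A, B and C, against 4.13, 4.34 and 6.01 CPM in controls A, B and C. Knockout A was the lowest library and control C the highest, while knockout C lay between controls A and B. The mean was 3.50 ± 1.08 CPM in knockouts and 4.83 ± 1.03 CPM in controls (SD, n = 3 each). Its log2 change, -0.46 ± 0.28, was the largest in size and had the smallest p among the 7 tested receptors, with an interval of -1.06 to 0.14, or 0.478 to 1.10 on the fold scale (edgeR unadjusted p = 0.125, adjusted p = 0.796). That rank rested on single libraries: the log2 change was -0.23 without knockout A and -0.27 without control C, where that of Htr1f was -0.30 and -0.46. Added per kb, the 4 Gi/o members made up 46.7, 47.2 and 47.0% of the summed receptor level in knockouts A, B and C, against 50.1, 49.2 and 49.1% in controls A, B and C. Those shares did not overlap, while the shares of the other classes did: 13.0 to 14.5% in knockouts and 13.6 to 17.0% in controls for Gq, 17.4 to 27.1% in knockouts and 16.3 to 24.5% in controls for Gs, and 13.0 to 21.2% in knockouts and 12.7 to 17.4% in controls for Htr3a. No test was run on these shares, which were summed over chosen genes. They leave out Htr1d, a Gi/o receptor outside the chosen members, with a mean of 0.984 CPM per kb beside 0.889 for Htr1f. Htr1d was higher in each knockout than in the control of its letter, against the direction of the Gi/o share. Htr1d had 1.16, 0.898 and 1.17 CPM per kb in knockouts A, B and C, against 0.943, 0.620 and 1.11 CPM per kb in controls A, B and C. With Htr1d added, the Gi/o share of control B lay below those of knockouts A and C, so that the groups overlapped. The lack of overlap thus held for the chosen members only.

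Of the Gq-coupled receptors, Htr2c was the most counted member in every library, with 126 to 149 counts in knockouts and 132 to 147 in controls. It is known for the editing of its mRNA and for its very high level in the choroid plexus, the epithelium that secretes cerebrospinal fluid. Htr2c had 13.9, 13.8 and 13.1 CPM in knockouts A, B and C, against 14.0, 18.2 and 13.4 CPM in controls A, B and C. Control B stood alone, and the other 5 libraries lay within 1 CPM of each other. The means were 13.6 ± 0.443 CPM in knockouts and 15.2 ± 2.62 CPM in controls (SD, n = 3 each), with a log2 change of -0.16 ± 0.16 and an interval of -0.50 to 0.18 (edgeR adjusted p = 0.893). Without control B the log2 change was -0.01.

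Control B was also the library with the most Ttr, though not with the most of every choroid plexus marker. Ttr, which encodes the transthyretin secreted by that epithelium, had 2.37, 4.27 and 27.2 CPM in knockouts A, B and C, against 0.101, 144 and 2.14 CPM in controls A, B and C. The water channel gene Aqp1 had 4.84 CPM in control B and at most 3.32 CPM in any other library, and the folate receptor gene Folr1 had 1.36 CPM in control B and at most 0.206 CPM elsewhere. Of the 12 genes of the choroid plexus list, 6 were highest in control B, but Prlr, at 3.10 CPM, was the lowest of the 6 libraries there, and Otx2, at 3.35 CPM in control B, lay below all 3 knockouts (4.45 to 5.97 CPM). The list summed to 44.7 to 74.1 CPM in knockouts and 31.2 to 198 CPM in controls, and without Ttr to 42.3 to 46.9 CPM in knockouts and 31.1 to 54.5 CPM in controls, with control B the highest in both sums. Knockout C, second in Ttr and in Aqp1, had the lowest Htr2c level of the 6 libraries. The part of choroid plexus tissue in the Htr2c level was not tested.

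**Figure D3:**
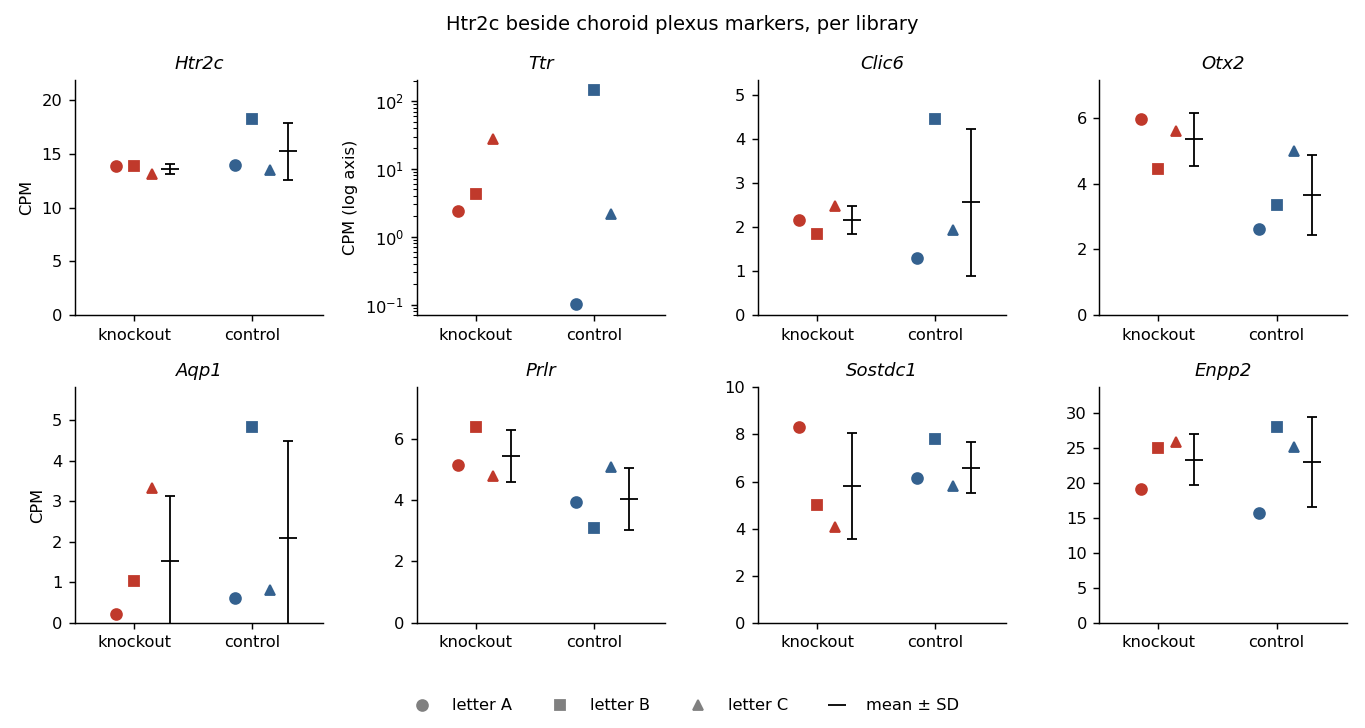
Htr2c and the 7 tested choroid plexus genes in CPM (y axes from 0, except the log axis of Ttr), in knockouts and controls with mean and SD; SD bars are cut at 0 and no bar is drawn for Ttr. The square of control B is the highest point for Htr2c (18.2 CPM), Ttr (144 CPM), Clic6, Aqp1 and Enpp2, but not for Otx2, Prlr or Sostdc1.

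Htr2a, the Gq receptor of adult pyramidal neurons through which serotonergic psychedelics act, had 1, 1 and 2 counts in knockouts A, B and C and 4, 1 and 4 counts in controls A, B and C. Pooled over libraries this was 0.133 CPM in knockouts (exact Poisson 95% interval 0.0362 to 0.340) and 0.324 CPM in controls (0.148 to 0.614), beside limits of 0.0996 CPM in knockouts and 0.108 CPM in controls that a count of 0 over a group would allow. The intervals, which cover counting error only, overlapped, and a difference was not detectable at this depth.

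The Gs-coupled receptors were represented mainly by Htr7, a receptor of the thalamus, hippocampus and developing cortex. Htr7 had 7.51, 5.47 and 9.25 CPM in knockouts A, B and C, against 6.54, 5.46 and 7.94 CPM in controls A, B and C. Letter C was the highest and letter B the lowest in both genotypes, and the spread between letters was wider than the distance between genotypes. The means of 7.41 ± 1.89 CPM in knockouts and 6.65 ± 1.25 CPM in controls (SD, n = 3 each) gave a log2 change of 0.15 ± 0.23 with an interval of -0.35 to 0.64 (edgeR adjusted p = 0.942).

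Htr6, a Gs receptor of the primary cilium, had 0, 3 and 6 counts in knockouts A, B and C and 8, 4 and 8 counts in controls A, B and C, and did not pass the filter. The pooled level was 0.299 CPM in knockouts (0.137 to 0.567) and 0.719 CPM in controls (0.439 to 1.11), with intervals that overlapped, and knockout C lay above control B. Htr4, a Gs receptor that raises neuronal excitability, had 3, 5 and 1 counts in knockouts A, B and C and 3, 3 and 2 counts in controls A, B and C. That was 0.299 CPM in knockouts (0.137 to 0.567) and 0.288 CPM in controls (0.124 to 0.567), and no difference was detectable at this depth.

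Htr3a encodes the channel subunit and marks interneurons that arise in the caudal ganglionic eminence. It had 3.71, 4.64 and 3.01 CPM in knockouts A, B and C, against 3.02, 4.22 and 2.95 CPM in controls A, B and C. Letter B was the highest in both genotypes and the groups overlapped. The log2 change was 0.17 ± 0.28 with an interval of -0.42 to 0.76 (edgeR adjusted p = 0.942). The 15 genes of the list for these interneurons summed to 1418 to 1493 CPM in knockouts and 1293 to 1507 CPM in controls, also overlapping.

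The remaining serotonin receptor genes were near the floor except for Htr1d, a Gi/o receptor closely related to Htr1b. Htr1d had 3.71, 2.88 and 3.74 CPM in knockouts A, B and C, against 3.02, 1.99 and 3.57 CPM in controls A, B and C, with overlapping groups and a log2 change of 0.25 ± 0.29 (edgeR adjusted p = 0.911). Htr5b had 0, 0 and 5 counts in knockouts A, B and C and 1, 0 and 3 counts in controls A, B and C. Htr2b had 2, 1 and 0 counts in knockouts A, B and C and Htr3b had 0, 1 and 0, and both were at 0 in each control. The Htr2b exons overlap those of Psmd1 on the opposite strand, and the strand column used keeps the reads of these genes apart.

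Set against the control of the same letter, each of the 7 tested receptors differed with 1 sign in all 3 pairs, in log2 CPM with a prior count of 2. Htr1a, Htr3a and Htr7 were higher in each knockout of a pair, and Htr1b, Htr1f, Htr2c and Htr5a were lower. Over all genes tested, 32.9% had 3 pair differences of 1 sign. Several of these differences were close to 0, such as 0.0036 for Htr7 in pair B, -0.0054 for Htr1b in pair C and -0.0099 for Htr2c in pair A, far smaller than the SE of the change. With the letter as a block, 0.845% of all genes were called (126 genes) but none of the receptors, whose smallest adjusted p was then 0.488, for Htr5a.

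**Figure D4:**
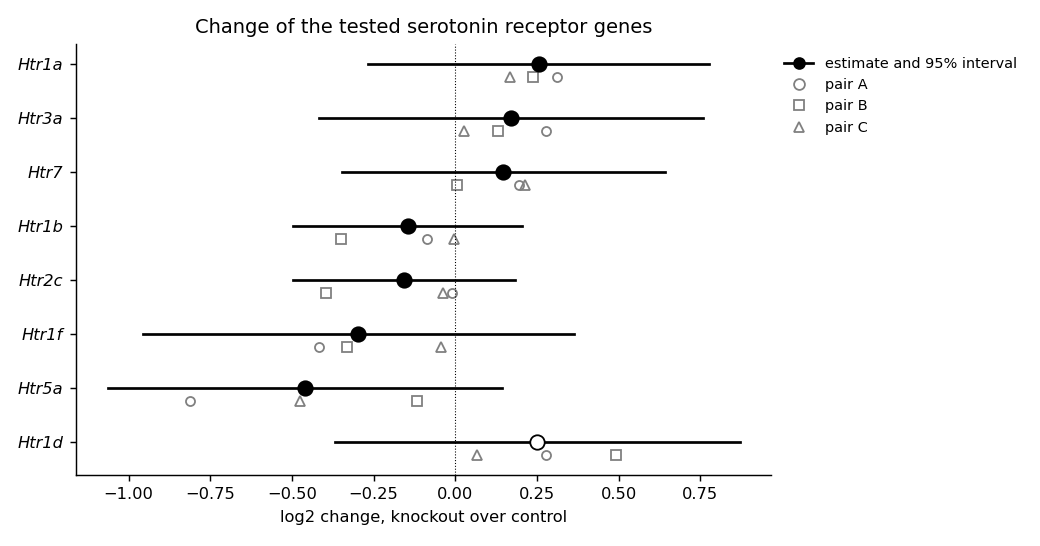
Log2 change, knockout over control (x axis), of the 7 tested receptors (filled circles) and Htr1d (open circle), with 95% intervals from edgeR, and the differences in log2 CPM within the 3 same-letter pairs as open symbols. All 8 intervals include 0; the estimates run from 0.26 for Htr1a to -0.46 for Htr5a.

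The spread within a genotype was close to what counting alone gives in some receptors and not in others. In Htr1b the coefficient of variation was 11.9% in knockouts and 8.91% in controls, where counting gives 9.35% in knockouts and 9.26% in controls. For Htr7 it was 25.5% in knockouts and 18.8% in controls, against 11.7% and 12.7% from counting, and for Htr5a 30.9% in knockouts and 21.4% in controls, against 16.8% and 14.9%. In both genes the observed spread between pups of one genotype was above that of counting. Each such value rests on 3 libraries, and whether the excess goes beyond counting error was not tested. Htr1f varied by 8.67% in knockouts and 20.5% in controls, against 22.0% and 20.7% from counting. Htr2c varied by 3.26% in knockouts and 17.2% in controls, where counting gives 8.55% in knockouts and 8.47% in controls, and control B set the second value.

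Reads on the opposite strand were few: 8 of the 10 members had none there in any library, Htr1b had 3 in all and Htr2c 24. No other annotated gene shares exons with a member on the same strand, although microRNA and snoRNA genes lie in the introns of Htr2c.

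The genes whose pattern over the 6 libraries was most like Htr2c, by root mean square difference of centred log2 CPM, were Mcm2 (0.0281), Capns1 (0.0340) and Furin (0.0369), where Htr2c itself had a root mean square deviation of 0.157. For Htr1b, with a deviation of 0.141, they were Fam104a (0.0178), Ttc33 (0.0226) and Zfand5 (0.0250). With 6 libraries and 14913 genes to search, such likeness is a description.

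The genes that make, move, read out or partner with serotonin signalling were followed in 6 lists of 98 genes, of which 97 were matched and 72 tested. edgeR called none of the 72, with 24 higher and 48 lower and a median log2 change of -0.07. An unadjusted p under 0.05 was reached by 16 of them, 14 lower and 2 higher, where 7.00% of all genes did, and 18 had groups that did not overlap, where 12.2% of all genes did. DESeq2 called 1 of the 97 matched genes, Slc7a5, which is the deleted gene and stands on the carrier list. Slc7a5 is also counted above among the lower genes, those with an unadjusted p under 0.05 and those without overlap.

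S100a10, also called p11, is an adaptor that binds the Htr1b and Htr4 receptors and raises their number at the cell surface (chr3, 93555080 to 93564643, GRCm38). S100a10 had 39.2, 42.4 and 36.2 CPM in knockouts A, B and C, against 57.7, 63.5 and 48.8 CPM in controls A, B and C. Every knockout lay below every control. Its mean was 39.3 ± 3.11 CPM in knockouts and 56.7 ± 7.41 CPM in controls (SD, n = 3 each), and the log2 change was -0.53 ± 0.12 with an interval of -0.79 to -0.27. It did not pass in the fit on genotype alone (edgeR adjusted p = 0.233) or in DESeq2 (adjusted p = 0.123), but was called with the letter as a block (edgeR adjusted p = 0.00525) and without the filter on low counts (0.0152); DESeq2 with the same block did not call it (adjusted p = 0.0884). Of the 72 tested pathway genes it was the one called with the letter as a block, and it was called in that fit without any 1 of the 3 pairs, alternatives chosen after seeing the data. In the same list of 20 tested partners, 6 were higher and 14 lower, with a median log2 change of -0.14. Adarb2, a member of the family of RNA editing enzymes that itself lacks editing activity, had the next smallest p, with 27.5, 26.3 and 22.0 CPM in knockouts A, B and C, against 22.2, 16.8 and 17.9 CPM in controls A, B and C, and a log2 change of 0.41 ± 0.15 (edgeR adjusted p = 0.578). The editing enzyme genes proper, Adar and Adarb1, which edit Htr2c mRNA and were looked up after their values were seen, had log2 changes of 0.11 ± 0.12 and -0.13 ± 0.12.

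**Figure D5:**
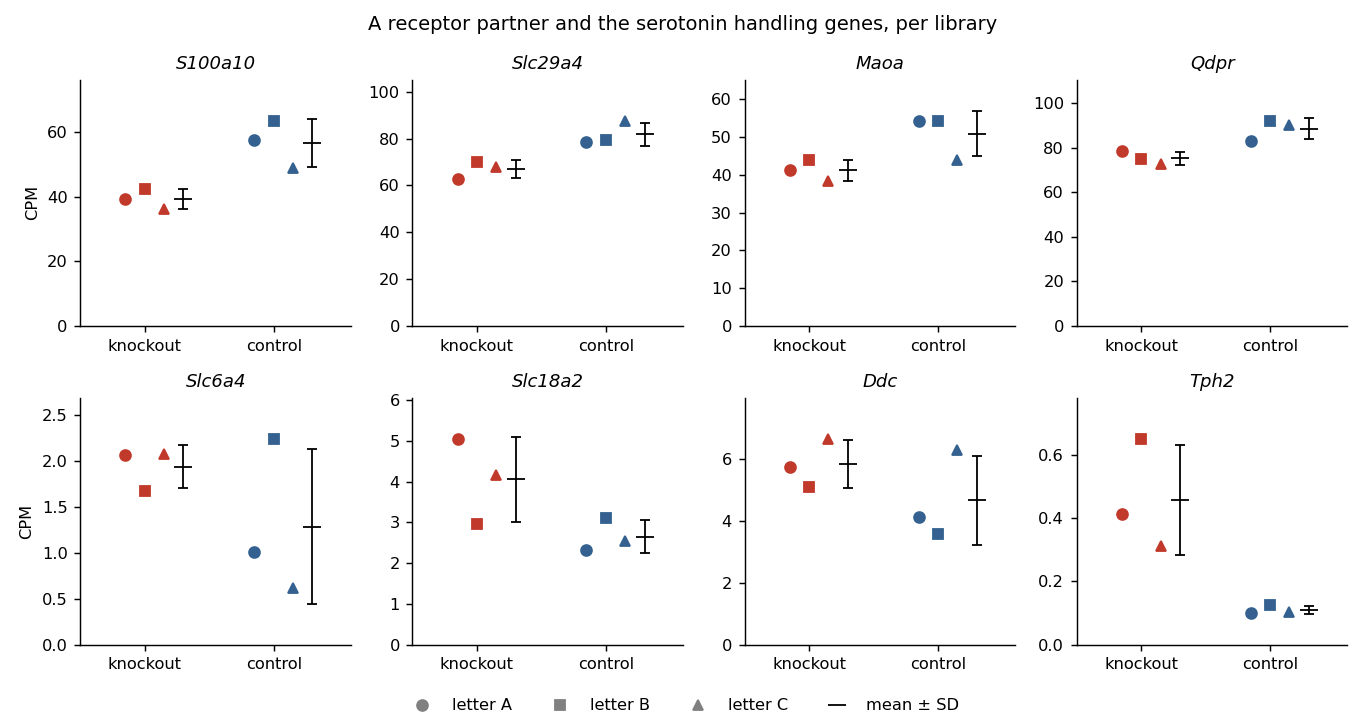
S100a10 and 7 genes of serotonin handling in CPM (y axis, from 0, own scale per panel) in knockouts and controls, with mean and SD; the marker shape gives the letter. Knockouts lie below controls without overlap in S100a10, Slc29a4, Maoa and Qdpr, while Slc6a4, Slc18a2 and Ddc overlap and Tph2 is at most 0.649 CPM in any library.

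Of the genes for synthesis, packaging, uptake and breakdown of serotonin, 13 of 18 were tested, with 7 higher and 6 lower and a median log2 change of 0.05. The smallest p were those of Slc29a4, the low-affinity monoamine transporter PMAT, and Maoa, the oxidase that degrades serotonin. Slc29a4 had 62.7, 70.1 and 67.9 CPM in knockouts A, B and C, against 78.6, 79.4 and 87.6 CPM in controls A, B and C, a log2 change of -0.29 ± 0.10 (edgeR adjusted p = 0.553). Maoa had 41.4, 44.0 and 38.3 CPM in knockouts A, B and C, against 54.4, 54.3 and 44.0 CPM in controls A, B and C, a log2 change of -0.30 ± 0.12 (adjusted p = 0.640). In both genes the groups did not overlap, although for Maoa knockout B and control C were level to 3 digits. Qdpr, which regenerates the cofactor of tryptophan hydroxylase, had 78.4, 74.9 and 72.5 CPM in knockouts A, B and C, against 83.1, 92.0 and 90.0 CPM in controls A, B and C, again with no overlap (log2 change -0.23 ± 0.10, edgeR adjusted p = 0.690).

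The genes that mark serotonin-releasing or serotonin-accumulating cells, named here after their values were seen, were low. Slc6a4, the serotonin transporter, which thalamic neurons of newborn rodents also express for a time, had 2.06, 1.67 and 2.08 CPM in knockouts A, B and C, against 1.01, 2.23 and 0.611 CPM in controls A, B and C, and control B was the highest library. The vesicular transporter gene Slc18a2 had 5.04, 2.97 and 4.16 CPM in knockouts A, B and C, against 2.32, 3.10 and 2.55 CPM in controls A, B and C, with knockout B below control B (log2 change 0.61 ± 0.29, edgeR adjusted p = 0.712). Markers of thalamic neurons summed to 507 to 569 CPM in knockouts and 420 to 527 CPM in controls. Of the 10 tested, however, 4 were higher and 6 lower, with a median log2 change of -0.07. The part of thalamic tissue in the Slc6a4 and Slc18a2 levels was not tested. Tph2, the rate-limiting enzyme of serotonin synthesis in raphe neurons, had 4, 7 and 3 counts in knockouts A, B and C and 1 count in each control. Those groups did not overlap, but Tph2 failed the filter, and without the filter its log2 change of 1.97 ± 1.02 did not pass (edgeR adjusted p = 0.812). Tph1, the peripheral enzyme, had 0, 5 and 8 counts in knockouts A, B and C and 10, 3 and 9 counts in controls A, B and C. Aanat and Asmt, which turn serotonin into melatonin, had no count in any library.

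Among factors of serotonergic neuron identity, 2 of 9 were tested, Insm1 (log2 change 0.17 ± 0.13, edgeR adjusted p = 0.848) and Nkx2-2 (0.17 ± 0.31, adjusted p = 0.945), and both also act in other cells. Fev, the factor that defines raphe serotonin neurons, had no count in any library. The kynurenine branch of tryptophan breakdown gave 2 tested genes of 12, Kyat3 (0.45 ± 0.35, edgeR adjusted p = 0.847) and Kyat1 (-0.11 ± 0.15, adjusted p = 0.927), while Kmo and Haao had no count. Of the carriers of tryptophan and related amino acids, 8 of 11 were tested, 2 higher and 6 lower with a median log2 change of -0.36. The deleted gene, Slc7a5, is among those 6 and enters that median. The carrier with the smallest p beside Slc7a5 was Slc7a8, the light chain of LAT2, with 27.8, 28.9 and 26.6 CPM in knockouts A, B and C, against 30.3, 41.8 and 33.0 CPM in controls A, B and C (log2 change -0.33 ± 0.14, edgeR adjusted p = 0.656). Its groups did not overlap.

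The G proteins, cyclases, phospholipases, kinases and channels downstream of the receptors were all tested (27 genes). Of these, 6 were higher and 21 lower, with a median log2 change of -0.06. The smallest p belonged to Kcnj3, the GIRK1 potassium channel subunit that Gi/o receptors such as Htr1a open. Kcnj3 had 38.6, 35.8 and 35.1 CPM in knockouts A, B and C, against 44.3, 50.5 and 45.9 CPM in controls A, B and C, a log2 change of -0.36 ± 0.11 (edgeR adjusted p = 0.480). Prkar2b, a regulatory subunit of the kinase that cyclic AMP activates, had 290.3, 314.5 and 262.0 CPM in knockouts A, B and C, against 340.5, 414.7 and 343.0 CPM in controls A, B and C, a log2 change of -0.34 ± 0.11 (adjusted p = 0.526). All knockouts lay below all controls in both genes.

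The cells that could carry the receptors were read from 13 marker lists, of which 129 genes were tested. edgeR called none of them on genotype alone, where 21 reached an unadjusted p under 0.05 (7.00% of all genes did), and called 5 with the letter as a block (0.845% of all genes), while DESeq2 called 1, Rorb. Upper-layer projection neuron markers had 10 of 12 genes lower, a median log2 change of -0.20 and summed levels that did not overlap. With the letter as a block 3 of them were called, all lower, among them Rorb, a nuclear receptor of layer 4 neurons (log2 change -0.64 ± 0.12, edgeR adjusted p = 0.0942 on genotype alone, 0.00115 with the block and 0.0120 in DESeq2) and Rasgrf2 (-0.40 ± 0.11, adjusted p = 0.420 and 0.0362 with the block). Deep-layer markers were divided, 7 higher and 5 lower with a median of 0.03, led by Sox5 (-0.23 ± 0.10, adjusted p = 0.686) and Zfpm2 (0.37 ± 0.18, adjusted p = 0.712). Subplate markers, 4 higher and 5 lower with a median of -0.10, summed to 340 to 355 CPM in knockouts and 365 to 420 CPM in controls, with Ccn2 (log2 change -0.35 ± 0.11, adjusted p = 0.487) and Cplx3 (-0.68 ± 0.24, adjusted p = 0.561) first by p.

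Interneurons of the caudal ganglionic eminence had 10 of 13 tested markers higher, with a median log2 change of 0.10. Cck, one of the lower ones and also expressed in pyramidal cells, had a log2 change of -0.47 ± 0.11 (edgeR adjusted p = 0.276, and 0.0116 with the letter as a block). Next by p came 2 of the higher ones, Adarb2, also on the list of receptor partners, and Sp8. Their log2 changes were 0.41 ± 0.15 (edgeR adjusted p = 0.578) and 0.44 ± 0.19 (adjusted p = 0.699). Markers of the medial ganglionic eminence had 8 of 11 tested genes higher, with a median of 0.09. They summed to 1228 to 1501 CPM in knockouts and 1266 to 1417 CPM in controls. First by p were 2 of the lower genes, Satb1 (log2 change -0.33 ± 0.11, adjusted p = 0.507) and Npy (-0.30 ± 0.14, adjusted p = 0.708). Lhx6, one of the higher genes, had 40.2 to 44.6 CPM in knockouts and 34.2 to 38.2 CPM in controls (0.21 ± 0.11, adjusted p = 0.754). Cajal-Retzius markers summed to 402 to 461 CPM in knockouts and 340 to 390 CPM in controls, all 8 higher with a median of 0.15 and none called. Reln (0.17 ± 0.10, adjusted p = 0.776) and Cacna2d2 (0.25 ± 0.14, adjusted p = 0.779) were first by p and the most abundant. Reln and Calb2 are also on the list of the caudal ganglionic eminence. Trp73, Lhx1, Lhx5 and Ebf3 had at most 5.70 CPM in any library, with overlapping groups.

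Tissue next to the cortex and non-neuronal cells were measured the same way. Striatal markers, 7 higher and 8 lower with a median log2 change of -0.02, summed to 1579 to 1935 CPM in knockouts and 1592 to 1956 CPM in controls (Drd1 -0.35 ± 0.16 on the log2 scale, edgeR adjusted p = 0.717; Six3 0.31 ± 0.22, adjusted p = 0.839). Hippocampal markers, 4 higher and 4 lower with a median of -0.01, summed to 1272 to 1319 CPM in knockouts and 1254 to 1382 CPM in controls, with Zbtb20 at a log2 change of 0.29 ± 0.11 (adjusted p = 0.621). Of the thalamic markers 4 were higher and 6 lower (median -0.07), and of the tested choroid plexus markers 3 were higher and 4 lower (median -0.18). The thalamic genes first by p were Zfhx3 (0.46 ± 0.14, adjusted p = 0.462) and Gbx2 (0.66 ± 0.41, adjusted p = 0.802), and those of the choroid plexus were Otx2 (0.54 ± 0.27, adjusted p = 0.734) and Prlr (0.42 ± 0.26, adjusted p = 0.796). Microglial markers, 9 of 10 higher with a median of 0.19, summed to 157 to 199 CPM in knockouts and 133 to 166 CPM in controls (Csf1r 0.52 ± 0.16, edgeR adjusted p = 0.473; C1qb 0.53 ± 0.19, adjusted p = 0.575). Vessel markers, 9 of 10 higher with a median of 0.20, summed to 265 to 307 CPM in knockouts and 238 to 270 CPM in controls (Tie1 0.82 ± 0.34, edgeR adjusted p = 0.666; Rgs5 0.24 ± 0.11, adjusted p = 0.718), and astrocyte markers, 4 higher and 6 lower with a median of -0.03, to 858 to 933 CPM in knockouts and 873 to 956 CPM in controls (Fgfr3 -0.27 ± 0.12, edgeR adjusted p = 0.708; Aqp4 -0.19 ± 0.15, adjusted p = 0.846). The part of any of these cell types in the receptor levels was not tested.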

How the data were processed

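Strand-specific polyA libraries of 6 cortices were made with a Lexogen SENSE kit, per the labels' protocols. The authors deposited raw read counts per gene as STAR's gene count tables; STAR 2.5.4 and GRCm38 are named per the submitters' processing notes, and the annotation release is not given in the sources used here. The column of the strand with more reads was used, with 18.6 times the reads of the other. Summary lines, reads outside exons among them, were left out. The multi-mapping line was 0, so reads shared by near-identical genes were not counted. GENCODE M21 matched 52403 of 52550 identifiers.

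The fit used edgeR 4.0.16 under R 4.3.3: filterByExpr, TMM (factors 0.979 to 1.04), robust quasi-likelihood F-test on genotype, two-sided, adjusted by Benjamini-Hochberg over all 14913 genes, called under 0.05. Each SE was derived from the estimate and its F statistic. The code was tested on simulated data. DESeq2 1.42.0, other scalings, filters and strand settings, a letter block and the loss of each library were alternatives. Gene counts were 8249436 to 10372582 per library.

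Labels call the samples biological replicates; replicates differed by more than counting noise (chi-square divided by its degrees of freedom, 7.04 to 12.0). Deviations from group means correlated at 0.417, 0.342 and 0.211 between knockout and control of letters A, B and C. Between different letters they correlated at most at -0.0310. Centring on group means makes values between letters negative on balance once those within letters are positive, so they add no separate support. The letters were taken to pair libraries from this check of the data, and labels do not say what they mark. Xist was high only in the libraries of letter B, and the part of shared sex in that match was not tested. The members and lists were chosen with earlier results of these data known. Named genes were the members, the other receptors, Slc7a5, called genes or the 2 smallest p of each list, and the 3 genes most like the 2 members of smallest p with a mean of at least 5 CPM. Some genes named by this rule are not reported here.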

Additional observations from a re-analysis of the deposited data

How the results depend on the processing

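No serotonin receptor was called in any of the 17 alternatives run for each of the 7 tested ones, in which the lowest adjusted p was 0.412 (Htr5a, with the letter as a block and without pair B, a setting chosen after seeing the data). Of 119 such log2 changes 117 kept their direction. The exceptions were Htr3a without knockout B (-0.0047) and Htr7 without knockout C (-0.046). Over all alternatives the log2 change ranged from 0.11 to 0.37 for Htr1a, -0.25 to -0.04 for Htr1b, -0.46 to -0.21 for Htr1f, -0.24 to -0.01 for Htr2c, -0.00 to 0.35 for Htr3a, -0.65 to -0.23 for Htr5a and -0.05 to 0.33 for Htr7. Among the receptors below the filter, with DESeq2 and the letter as a block, the sign turned for Htr4 (-0.14 ± 1.45) and Htr5b (-0.58 ± 2.35).

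The paired analysis, with the letter as a replicate block, moved the number of genes called over all genes to 126, and to 228, 161 and 77 without pairs A, B and C, against 5 on genotype alone; it changed no receptor call. DESeq2 called 26, DESeq2 with the block 25, scaling by library total 10 and no filter 71. Leaving out 1 library gave 1 to 9, with 1 without knockout B, 9 without knockout C, 2 without control A and 2 without control B. Among pathway genes, 0 on genotype alone, the block called 1 (S100a10), DESeq2 1 (Slc7a5), no filter 2 (both), and the block without pairs A, B and C 3, 3 and 2. Other settings called 0. The cause of these shifts was not tested.

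Htr2a, Htr4 and Htr6 had at most 8 counts in a library and did not pass the filter on low counts. Without that filter, edgeR gave log2 changes of -1.19 ± 1.06 for Htr2a, 0.03 ± 0.91 for Htr4 and -1.22 ± 0.73 for Htr6. None was called there (edgeR adjusted p = 0.812, 0.990 and 0.812).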
